A study of Bombus terrestris with 33 samples.

Results

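The 100 contigs described here had their lowest mean level in the brains of bumblebee queens whose ovaries stayed undeveloped after hibernation. They were chosen by measured values, from a table of raw reads for 10672 contigs in 33 libraries, each from the brain of 1 Bombus terrestris queen. For each contig the level was log2(CPM + 1), where CPM is the read count scaled to a common library total, minus the median of that level in the library over contigs averaging at least 5 CPM. Contigs averaging at least 1 CPM, outside the 100 most abundant, could enter, which left 3924. The 4 group means were sorted, and 747 of the 3924 contigs (19.0%) had their largest gap just above the undeveloped-ovary group, so that it stood alone at the bottom. The 100 with the highest ratio of that gap to the mean within-group SD are the members.

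All queens were adult females from commercial colonies of 1 supplier, and all had access to males from 5 days old. In the FM group (9 queens) no mating took place. In the SM group (8 queens) mating took place and the brain was sampled 3 days later. The 8 FR and 8 SR queens had mated, spent 8 weeks at 5 °C and were frozen 1 month after hibernation, when dissection showed undeveloped ovaries in FR queens and developed ovaries with mature eggs in SR queens. FR and SR queens were thus sorted by outcome and not assigned to a treatment. Colonies C2 and C3 supplied queens to every group, C7 only to FM and SM, and C9 only to FR and SR, so several queens of a group share a mother colony. The labels give estimated ages, without a unit, of 6 to 27 in FM, 11 to 20 in SM, 91 to 102 in FR and 94 to 97 in SR queens.

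A bumblebee queen usually mates before winter, spends the cold season in diapause, and founds a colony alone in spring. Ovary activation after diapause goes with a change in behaviour from feeding and recovery to nest building, egg laying and brood care, and insect hormones such as juvenile hormone act on the ovary and other tissues during that change. The brain is one of the organs that sense and steer this change. None of the contig identifiers matched the 13398 genes of the reference table (0 matches), so the members carry no gene names, roles or sequences here. The brain label could not be checked against marker genes for the same reason, and fewer cells of a type cannot be told apart from less RNA per cell.

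The members were lower in FR queens by modest amounts and spanned a wide range of abundance. Their gap to the next lowest group ranged from 0.11 to 0.64 on the log2 scale, with a median of 0.30, which corresponds to levels 7.59% to 35.8% lower, with a median of 18.6%. The gap was under 0.2 for 24 members, from 0.2 to 0.5 for 64 and above 0.5 for 12, and it reached 1 for none (0 members). The next lowest group was FM for 50 members, SM for 26 and SR for 24. The means of FM, SM and SR lay close together, with a median spread among them of 0.070 on the log2 scale. The choice favours this, because every gap among them had to be smaller than the gap to FR. Average abundance ranged from 1.05 to 1503 CPM with a median of 181 CPM, against a median of 27.1 CPM over the 3924 contigs. The lowest count of any member in any library was 28 reads. Because the ratio divides by the within-group SD, it favours contigs with little spread. The median of that SD was 0.16 over the members and 0.21 over the 3924 contigs.

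The member with the highest ratio, Contig7141, was a contig of low abundance. Its CPM ranged from 6.16 to 8.27 in FR queens with a median of 7.36, from 7.70 to 10.2 in FM queens with a median of 8.36, from 7.97 to 10.0 in SM queens with a median of 8.89, and from 7.94 to 9.56 in SR queens with a median of 8.19. On the centred scale every FR queen was below every SM and SR queen, while FR and FM queens overlapped. The mean was 7.21 ± 0.724 CPM in FR queens (SD, n = 8), against 8.57 ± 0.907 in FM (SD, n = 9), 8.92 ± 0.748 in SM and 8.52 ± 0.636 in SR queens (SD, n = 8 each). The edgeR log2 fold change was -0.42 ± 0.087 against SR, -0.42 ± 0.092 against FM and -0.48 ± 0.096 against SM queens (SE). These contrasts chose the members, so their values are a description.

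The member with the second highest ratio, Contig3424, was more abundant, with an average of 274 CPM over the 33 queens against 8.32 CPM for Contig7141. It ranged from 201 to 287 CPM in FR queens with a median of 219 CPM, from 250 to 379 CPM in FM queens with a median of 280 CPM, from 260 to 308 CPM in SM queens with a median of 283 CPM, and from 257 to 306 CPM in SR queens with a median of 285 CPM. The highest FR queen, replicate 37, had 287 CPM and lay inside the range of each other group. FR replicate 32, at 255 CPM, lay inside the FM range, and the other FR queens were at 235 CPM or below and under every queen of the other groups. The log2 fold change was -0.47 ± 0.097 against SR, -0.56 ± 0.10 against FM and -0.47 ± 0.11 against SM queens (SE).

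**Figure D1:**
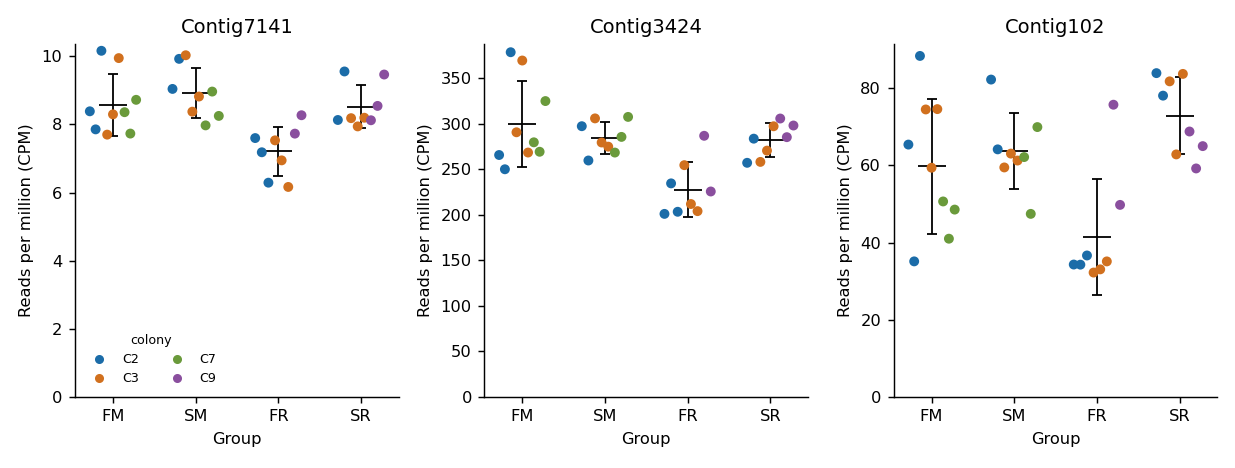
CPM of Contig7141, Contig3424 and Contig102 in each queen (points, coloured by colony), by group, with the group mean and SD as a dash and bars (n = 9 FM, 8 SM, 8 FR and 8 SR). The FR mean lies lowest for each contig, and FR points reach into the other groups, with replicate 37 at 287 CPM for Contig3424 and the 2 FR queens of colony C9 at 49.8 and 75.8 CPM for Contig102.

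Members at other places of the list also had FR lowest on the centred scale. The largest gap belonged to a contig of low abundance, with a mean of 2.38 ± 0.793 CPM in FR queens (SD, n = 8). The other means were 3.75 ± 0.710 in SR, 4.06 ± 0.834 in SM (SD, n = 8 each) and 4.13 ± 1.47 CPM for FM (SD, n = 9). In 6 of the 8 FR queens it lay between 1.79 and 2.33 CPM, below the lowest value of any other queen (2.64 CPM), and it was 3.38 CPM in replicate 32 and 3.87 CPM in replicate 37. The most abundant member had 1259 ± 339 CPM in FR queens, against 1625 ± 115 in SR, 1585 ± 160 in SM and 1538 ± 269 CPM in FM queens (SD). Its FR values ran from 925 to 1956 CPM, and the highest, again in replicate 37, was above every SR and SM queen. The least abundant member had 0.776 ± 0.178 CPM in FR queens against 1.11 ± 0.168 in SR queens (SD, n = 8 each).

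The member with the smallest gap shows what the centring does. Its mean was 209.7 ± 10.7 CPM for FR against 208 ± 16.0 CPM for SR (SD, n = 8 each), so in plain CPM FR was not the lowest group. The library median that is subtracted was higher in FR libraries, at 6.435 ± 0.047 on the log2 scale, than in SR libraries, at 6.301 ± 0.090 (SD, n = 8 each), and it was 6.343 ± 0.12 in FM and 6.363 ± 0.11 in SM libraries. In plain mean CPM, 98 of the 100 members had FR lowest, with a median of 13.0% below the next group and at most 38.0%. The members together held 2.66 ± 0.314% of reads in FR queens (SD, n = 8), against 3.09 ± 0.191% in SR, 3.16 ± 0.179% in SM (SD, n = 8 each) and 3.10 ± 0.325% in FM queens (SD, n = 9). At the limit of 100 the selection was gradual: the last contig inside had a ratio of 1.591 with a gap of 0.25, and the first outside had 1.583 with a gap of 0.58.

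Few members separated the groups completely. No member (0 of 100) had every FR queen below every FM queen, where 0.0255% of the 3924 contigs did. Every FR queen was below every SM queen in 3 members (0.306% of the 3924) and below every SR queen in 5 (0.51%). These contrasts chose the members, and nothing is read from the shares. The members, named after their values were seen, were Contig7141, Contig620 and Contig3738 against SM queens, and Contig7141, Contig3142, Contig1294, Contig6171 and Contig1897 against SR queens. Contig620 had the widest separation of these, ranging from 307 to 600 CPM in FR against 765 to 1047 CPM in SM queens. Contig6171 ranged from 494 to 790 CPM in FR against 730 to 959 CPM in SR queens, and Contig3142 from 94.2 to 127 CPM against 117 to 150 CPM. In plain CPM the groups separated for Contig620 alone, and the other separations held only after centring.

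Queens differed widely within the FR group. No member (0) had every FR queen below every other queen, 5 did without FR replicate 37, and 9 did without FR replicate 37 and FM replicate 4. Leaving out a queen can only raise such a count. The same counts over all contigs were not taken, so nothing is read from the rise. For each queen the deviation of every member from the mean of the FM, SM and SR group means was taken, and its median over the 100 members was used as that queen's value. FR replicates 27, 28 and 36 had values of -0.48, -0.48 and -0.48, and replicate 33 had -0.42. Replicates 31, 38 and 32 followed at -0.32, -0.25 and -0.14. FR replicate 37 had -0.0060, within the SR range of -0.038 to 0.077. The FR group thus ran from 3 queens at -0.48 to 1 queen at the level of the other groups, with a mean of -0.32 ± 0.18 (SD, n = 8). SR queens were the tightest group, at 0.015 ± 0.039 (SD, n = 8), while SM queens ranged from -0.14 to 0.12 and FM queens from -0.30 to 0.17. SR also had the smallest median SD over the 3924 contigs, at 0.161 against 0.189 in SM, 0.198 in FR and 0.251 in FM queens. Over the members that median was 0.085 in SR, 0.137 in SM, 0.193 in FR and 0.186 in FM queens, so FR lay near FM and near its own value over all contigs.

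**Figure D2:**
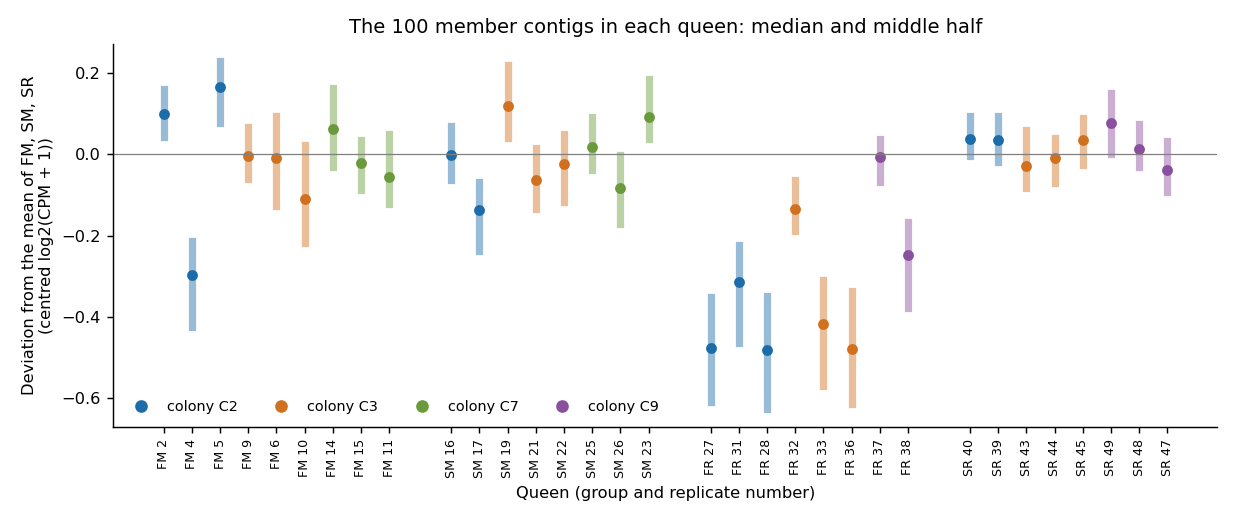
Median (point) and interquartile range (bar) over the 100 members of the deviation from the mean of the FM, SM and SR group means, on the centred log2 scale, for each of the 33 queens, coloured by colony. The 4 lowest FR queens lie at -0.42 or lower, FR replicate 37 lies at -0.0060, and FM replicate 4 lies at -0.30 among the FR queens.

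One unmated queen resembled the FR queens. FM replicate 4, of colony C2, had a value of -0.30, lower than 3 of the 8 FR queens. It was below all 3 of the FM, SM and SR group means in 99 of the 100 members, and below them in 35.4% of the 3924 contigs. It had the lowest level of the 9 FM queens in 77 members, against 13.5% of the 3924 contigs. The order of queens within the FM group was no part of the choice of members. Next among the other groups came SM replicate 17, also of colony C2, at -0.14, which was the lowest SM queen in 47 members (12.9% of the 3924). In the opposite direction FR replicate 37 was the highest FR queen in 87 members, against 22.6% of the 3924. The FR values entered the choice of members, so that count is a description.

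The members also moved together among queens outside the FR group. After each group's mean was subtracted, the Pearson correlation over the 25 FM, SM and SR queens had a median of 0.42 over the 4950 pairs of members, with quartiles of 0.22 and 0.59, and 92.7% of pairs were positive. Over all pairs of the 3924 contigs the median was 0.0092 and 51.1% were positive. The pairs share the same 25 libraries and their scaling, so the correlations are a description. The members were also more abundant, with a median of 181 CPM against 27.1 CPM over the 3924 contigs. FM replicate 4, the lowest FM queen in 77 members, was among the 25 queens. The part of abundance and of that queen in the correlations was not tested.

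The contigs were next chosen again without 1 FR queen at a time, and that queen's levels were read in the 100 contigs chosen without it. FR replicates 27, 28 and 36 were below all 3 of the FM, SM and SR group means in 100 of 100 contigs, where 35.7%, 39.6% and 37.8% of all contigs were. Replicate 33 was below them in 99 contigs (38.1% of all), replicate 31 in 98 (34.9%) and replicate 38 in 97 (38.7%). Replicate 32 was below them in 73 (33.1%), and replicate 37 in 22 (35.1%). The median deviation of the queen left out was -0.46 for replicate 27, -0.45 for replicates 28 and 36, -0.42 for replicate 33, -0.29 for replicate 31, -0.20 for replicate 38, -0.089 for replicate 32 and 0.035 for replicate 37. The queen left out was below every FM, SM and SR queen in 91 contigs for replicate 28, 85 for replicate 36, 82 for replicate 27, 80 for replicate 33, 40 for replicate 31, 23 for replicate 38, 4 for replicate 32 and 0 for replicate 37, where 1.53% to 12.1% of all contigs were. The FM, SM and SR queens still took part in choosing these contigs, so the shares over all contigs are not the values that no difference would give.

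**Figure D3:**
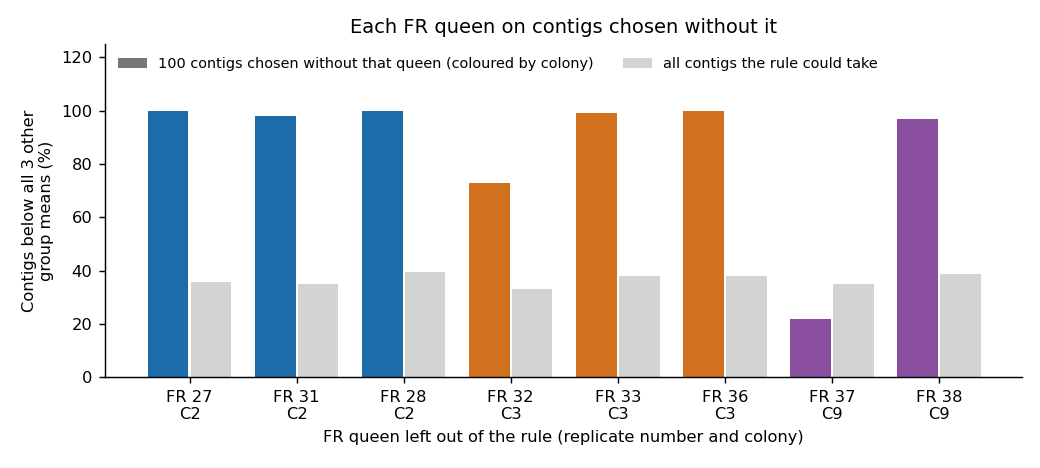
For each FR queen, the percentage of the 100 contigs chosen without that queen in which it lay below all 3 of the FM, SM and SR group means (coloured by colony), beside the same percentage over all contigs that could be chosen (grey). The highest 6 queens reach 97 to 100, replicate 32 reaches 73 and replicate 37 reaches 22.

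Whole colonies were left out in the same way, and FR and SR queens of the colony left out were compared. In colony C2 (3 FR and 2 SR queens) every FR queen was below every SR queen in 97 of the 100 contigs chosen without C2, against 28.9% of all contigs, and the FR mean was lower in 100 (45.3% of all). In colony C3 (3 and 3 queens) the numbers were 48 contigs without overlap (15.0% of all) and 100 with a lower FR mean (45.0%). In colony C9 (2 and 3 queens) they were 17 contigs without overlap (11.3% of all) and 91 with a lower FR mean (55.4%). The median FR minus SR difference in these contigs was -0.46 in C2, -0.31 in C3 and -0.12 in C9 on the log2 scale. Over all contigs it was 0.050, 0.039 and -0.023. Between 61 and 70 of the contigs chosen without a colony were among the 100 members.

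The FR minus SR difference in C9 was also set against the mean of that in C2 and C3 over the 100 members, with edgeR over the 16 FR and SR libraries and 5299 contigs, a fit added after these values were seen. The same FR and SR values chose the members, and 6 of the 8 FR queens came from C2 and C3, so a low FR mean favours contigs with a stronger difference there. The values are therefore a description, and nothing is read from the calls. The difference was positive, that is less negative in C9, for 100 of the 100 members, with a median of 0.34 on the log2 scale, where the median over all contigs was -0.0049. The call threshold was passed by 1 member, Contig102, and by 0.264% of contigs tested, while 53 members and 21.8% of all contigs had an unadjusted p under 0.05. With total counts 0 members and 1 of all contigs were called, 14 members had an unadjusted p under 0.05, 7 turned negative, and the median over all contigs moved to -0.17. DESeq2 called 17 members and 401 of all contigs. Leaving out 1 library, edgeR called 38 members and 431 of all contigs when FR replicate 32 was left out, 30 and 492 for FR replicate 38, 2 and 117 for SR replicate 49, and 0 members and at most 2 of all contigs for FR replicate 27, 28, 33 or 37 or SR replicate 40, 47 or 48.

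Contig102 ranged from 32.2 to 36.7 CPM in the 6 FR queens of colonies C2 and C3, and 62.9 to 83.9 CPM in the 5 SR queens of those colonies, with no overlap. In colony C9 the FR queens had 49.8 and 75.8 CPM and the SR queens 59.2 to 68.8 CPM, so they overlapped there. FM queens ranged from 35.1 to 88.4 CPM and SM queens from 47.4 to 82.3 CPM, and the lowest FM value was again in replicate 4. The log2 difference between C9 and the mean of C2 and C3 was 1.33 ± 0.20 (SE), and 0.92 without FR replicate 37. These FR and SR values entered the choice of the contig, so no test is read from them.

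A measure of the whole library also differed between the groups. The number of contigs at 5 CPM or more was 2986 ± 55.4 in FR libraries (SD, n = 8), against 2871 ± 47.2 in SR, 2893 ± 63.5 in SM (SD, n = 8 each) and 2906 ± 67.4 in FM libraries (SD, n = 9). The 5 FR queens of lowest value had 3011 to 3041 such contigs, FM replicate 4 had 3025, and FR replicates 38, 32 and 37 had 2970, 2923 and 2885. FM replicate 10 had 2977 and SR replicate 47 had 2962 with values of -0.11 and -0.038. The part of this measure in the members' levels was not tested. Total counts were 42858092 to 61560882 per library. The 2 FR queens closest to the other groups, replicates 37 and 32, had estimated ages of 93 and 91, and the other 6 had 96 to 102. At an estimated age of 96, FR replicates 27 and 36 had values of -0.48 and -0.48. SR replicates 39, 45 and 49, of the same age, had 0.035, 0.035 and 0.077. The FR and SR values chose the members, so nothing about age is read from that difference. The part of age in these values was not tested.

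The mirror image of the members was taken for comparison: 100 contigs chosen in the same way with FR alone at the top, out of 995 (25.4% of the 3924). FM replicate 4 had a median deviation of 0.46 in those contigs, where the other FM queens ranged from -0.19 to 0.098. FR replicate 37 had -0.00077, FR replicate 32 had 0.17, FR replicate 38 had 0.37, and the other 5 FR queens ranged from 0.61 to 0.77. The mean of FR queens was fixed by the choice of these contigs. FM replicate 4 lay with the FR queens, and FR replicate 37 with the other groups, in both sets of contigs. Both sets were chosen from the same FR values and the same spread within groups. The order of FR queens was thus not free of the choice, and the mirrored set is a description and no separate support.

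**Figure D4:**
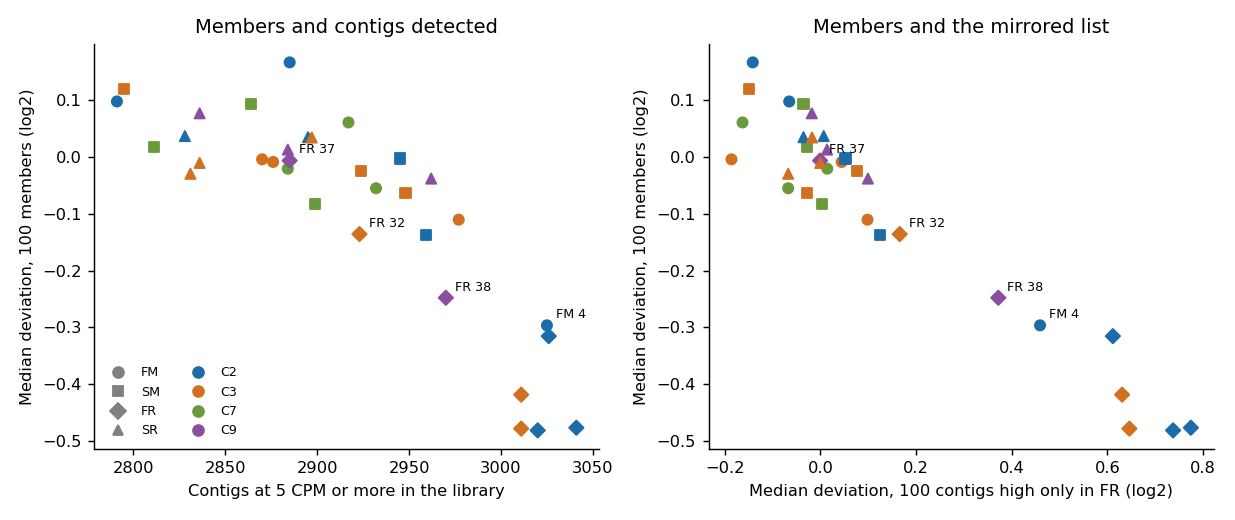
Each queen's median deviation over the 100 members (vertical axis, log2) against the number of contigs at 5 CPM or more in its library (left) and against its median deviation over the 100 contigs high only in FR (right, log2), with groups as symbols and colonies as colours. FM replicate 4 lies at 3025 contigs among the FR queens, and FR replicate 37 lies at 2885 contigs among the other groups.

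The 3 FR contrasts of the whole table were fitted over the 33 libraries on group and colony, and edgeR called 100 members lower in FR than in SR queens (14.3% of the 5606 contigs tested), 99 lower than in FM (8.9%) and 98 lower than in SM queens (8.38%). These contrasts chose the members, so nothing is read from those counts. The members' log2 fold changes ranged from -1.02 to -0.16 against SR, from -1.07 to -0.16 against FM and from -1.08 to -0.17 against SM queens, with medians of -0.40, -0.36 and -0.39. With edgeR 0 members were called in each of the 3 comparisons without colony C2 or without colony C3. Against SR queens 0 of all contigs were called lower in both fits, so the 0 there is not particular to the members. The fold change was negative for 100 of 100 members in each. Unadjusted p was under 0.05 for 91 and 96 members against SR, 72 and 93 against FM, and 90 and 76 against SM queens. Over all contigs, in either direction, 1175 and 1435 had such a p against SR, 1002 and 1188 against FM, and 1035 and 997 against SM queens. Total counts with no scaling factors called 41, 47 and 58 members lower in FR, out of 215, 160 and 155 of all contigs. It left 97 of 100 fold changes negative against SR, and moved the median log2 fold change of all contigs from 0.035 to 0.22 against SR, from 0.0061 to 0.10 against FM and from 0.027 to 0.12 against SM queens.

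Among the other groups the members differed little, which the choice of members favours. Between SM and FM queens edgeR called 0 members (0.0% of contigs tested), 0 had an unadjusted p under 0.05 (10.1% of all contigs did), and the median log2 fold change was 0.025. The member of lowest p, Contig5311, had a mean of 361 ± 30.3 CPM for FM (SD, n = 9) against 379 ± 39.2 CPM for SM (SD, n = 8), with an edgeR adjusted p of 0.591. Between SR and SM queens 0 members were called (0.0% of contigs), 3 had an unadjusted p under 0.05 (10.6% of all contigs did) and the median was -0.015. Contig1946 was lowest in p there, with a mean of 114 ± 11.1 CPM for SM against 100 ± 9.30 CPM for SR (SD, n = 8 each) and an edgeR adjusted p of 0.388. Between SR and FM queens 0 members were called (0.0535% of contigs), 0 had an unadjusted p under 0.05 (10.2% of all contigs did) and the median was 0.0042. The lowest p was that of Contig2442, with a mean of 63.8 ± 9.43 CPM for FM (SD, n = 9) against 53.9 ± 5.84 CPM for SR (SD, n = 8) and an edgeR adjusted p of 0.55. DESeq2 also called 0 members in these 3 comparisons. Its calls over all contigs are not given here, so nothing about the members is read from that.

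**Figure D5:**
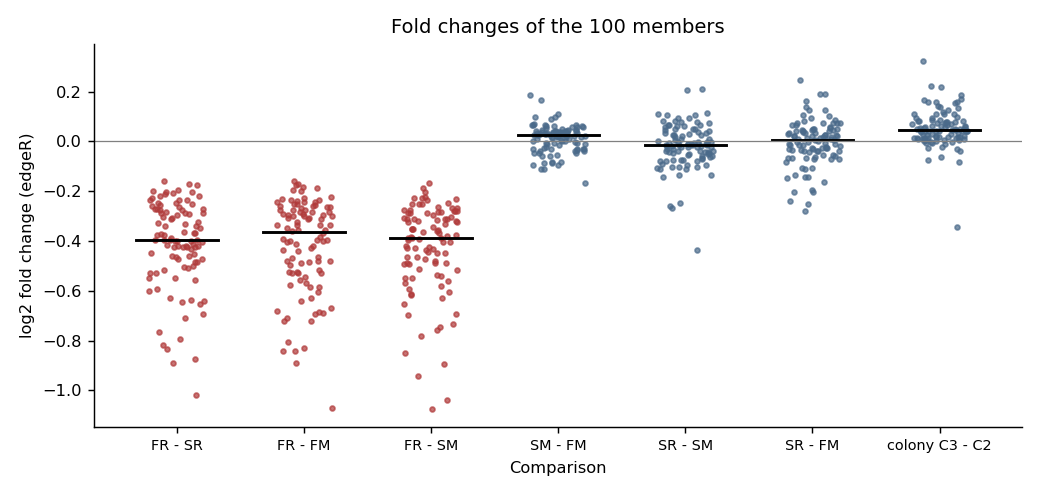
edgeR log2 fold changes of the 100 members (points) in each comparison, with the median as a bar. The 3 comparisons with FR queens, which chose the members, have medians of -0.40, -0.36 and -0.39, and the other comparisons of groups and of colonies shown have medians between -0.015 and 0.045.

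Colony and age were no part of the choice, although the division by the within-group SD favours contigs that vary little with either. Between colonies C3 and C2, the 2 colonies present in all groups, edgeR called 0 members with group as a covariate, where 2.19% of contigs tested were called. Unadjusted p was under 0.05 for 6 of the 100 members and for 13.6% of all contigs. The fold change was higher in C3 for 87 members and lower for 13, with a median of 0.045 on the log2 scale against 0.0050 over all contigs. With total counts the direction turned, with 61 of 100 lower in C3 and a median over all contigs of -0.053. The member of lowest p was Contig9262, at 0.22 ± 0.075 on the log2 scale (SE), with an edgeR adjusted p of 0.143. Among the 17 FM and SM queens, 0 members were called for a slope with estimated age, where 0.267% of the 5241 contigs tested were called, and 2 members and 11.8% of all contigs had an unadjusted p under 0.05. The slope was negative for 71 members, with a median of -0.0059 log2 units per unit of age. Contig2896 had the lowest p, with a slope of -0.024 ± 0.0087 (SE; edgeR adjusted p = 0.287). DESeq2 called 0 members with colony and 0 with age, and without its calls over all contigs nothing about the members is read from that.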

How the data were processed

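Values came from the deposited table of raw counts, with 1 column per queen. Scaled scores deposited by the authors served 1 alternative. The third deposited table, with 1 column per group, was not used. FastQC, TopHat, SAMtools and edgeR are named without versions, per the submitters' processing notes. Build, annotation and counter: not given in the sources used here. Counts were turned into CPM and centred as described (Python 3.11.15, pandas 2.3.3). edgeR 4.0.16 in R 4.3.3 (filterByExpr with a minimum count of 10, TMM, robust quasi-likelihood fit, Benjamini-Hochberg adjustment, calls at 0.05) was fitted on the whole table with group and colony. For age, the 17 FM and SM queens were fitted with group, colony and age. SEs were taken as |log2 fold change|/√F. Both the selection and the fits were tested on simulated data. The planted differences were larger than the members' median, so these tests do not cover most of the members' differences. Queens are separate animals, so p-values measure the spread between queens, and 0 columns belonged to other samples. Members, lists and tests were chosen with earlier results of these data known. The test of the C9 difference, the mirrored contigs, the numbers of contigs at 5 CPM and the joint omission of FR replicate 37 and FM replicate 4 were added after seeing the data. For FR contrasts the 2 members of highest ratio were named, and elsewhere at most 2 called members per direction or the member of lowest p. Members in other places were given without identifiers. Alternatives were DESeq2 1.42.0, other scalings, filters and pseudocounts, no colony term, and colonies or libraries left out. Libraries held 42858092 to 61560882 counts, and the lowest count of a member was 28 reads.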

Additional observations from a re-analysis of the deposited data

Results flagged for a closer look

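Dixon's criterion for a highest or lowest value standing apart was applied to library measures and named members within each group, 40 sets in all. It picked out 2 sets, and chance alone picks about 1 in 20. The most abundant member had 2193 CPM in FM replicate 5, a gap to the next queen of 0.65 of the group's range. Contig102 had 75.8 CPM in FR replicate 37, a gap of 0.597 of the range. It was examined because it passed the call threshold for the C9 difference, which rests partly on FR replicate 37. The rate of 1 in 20 therefore does not hold for that set. For Contig102 the FR minus SR difference in C9 and that in colonies C2 and C3 differed by 1.33 on the log2 scale in a fit of that difference. The same FR and SR values entered the choice of this contig, so the value is a description and no p is read from it. The reason was not tested.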

How the results depend on the processing

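Of the 100 members, 53 were chosen again with total counts and no centring, 21 with the authors' scaled scores and 61 without colony C3. Leaving out 1 library kept 78 to 99. The median gap of the 100 members as first chosen stayed between 0.197 and 0.361 under every alternative run for it. The authors' scaled scores were not run for it. These contigs were picked for their gap in the same libraries, so the range is a description. Members called lower in FR than SR, FM and SM queens numbered 41, 47 and 58 with total counts and 0 without colony C2 or C3, and otherwise 89 to 100. Leaving out 1 library gave 99 to 100, 67 to 100 and 70 to 100. These contrasts chose the members, so nothing is read from the counts. Over all contigs, 524 to 1030 were called lower in FR than in SR queens with 1 library left out. For the 0 against FM and SM queens without colony C2 or C3, the calls over all contigs are not given here. Without colony C2 or C3, 0 of all contigs were called lower in FR than in SR queens. Called members stayed at 0 for SM against FM, SR against SM, SR against FM, colony and age. For the C9 difference, whose values chose the members, DESeq2 called 17, total counts gave 0 and leaving out 1 library gave 0 to 38. In contigs chosen without the colony compared, the count without overlap was 17 in C9, 97 in C2 and 48 in C3, and 91 had a lower FR mean in C9. Leaving out a colony also leaves fewer queens. The cause of these changes was not tested. No paired analysis was possible because the groups share no replicate numbers. Colony, which groups do share, was a term of the fits instead.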
